A study of Mus musculus with 2 samples.

Results

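The transcripts of 5 SOX transcription factors, *Sox2*, *Sox4*, *Sox9*, *Sox11* and *Sox12*, were described in single cells of 2 mouse tumors of small cell lung cancer (SCLC). The members were given by gene symbol and not by a rule on their values here, although they were chosen with earlier results of these data known. They are 5 of the 27998 genes in the count tables. Cells with more than 500 detected genes were retained, 3193 of 4514 cell barcodes in tumor TKO1 and 3568 of 3816 in tumor TKO2.

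Both tumors came from TKO (triple knockout) mice, which are labelled Rb-/-; Trp53-/-; Rbl2-/- with a Rosa26 reporter of membrane-Tomato or membrane-GFP, on a background that mixes C57BL/6 with the strains 129/SVJ and 129/SvOla. Tumors were induced with Adeno-CMV-cre, in which the CMV promoter drives Cre in whichever cells the virus enters, and were taken 7 months later, at an age of 8 to 9 months. A single lung tumor per mouse was dissociated, live cells were sorted, and 1 library per tumor was made on the 10x Chromium system, which counts transcripts by their unique molecular identifiers (UMIs). By their labels the groups share every allele and agent and differ only in the animal, so effects of tumor and of library cannot be told apart, and no p-value was computed.

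SOX proteins bind DNA through a conserved domain, the HMG box, and take part in the choice and maintenance of cell fates, often beside a partner factor of the POU family. Sox4, Sox11 and Sox12 form the SoxC group, which acts in immature neurons and in many progenitor cells. Sox2, of the SoxB1 group, maintains stem and progenitor cells and is needed in the airway epithelium, where basal and club cells express it. Sox9, of the SoxE group, acts in cartilage, in many epithelia and in the tips of the growing lung. Neuroendocrine cells of the airway, from which SCLC can arise, are rare cells that carry secretory granules.

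The bases that code for the HMG box show how close *Sox4*, *Sox11*, *Sox2* and *Sox9* are in the domain that defines the family. The sequences below are the coding strand, 5′ to 3′, from the GENCODE M21 transcripts (GRCm38, the build named mm10 in the submitters' notes), each with 210 bases starting at the same conserved residue. *Sox4* is in lower case throughout, and capitals mark the bases of the other genes that differ from *Sox4*.
Sox4: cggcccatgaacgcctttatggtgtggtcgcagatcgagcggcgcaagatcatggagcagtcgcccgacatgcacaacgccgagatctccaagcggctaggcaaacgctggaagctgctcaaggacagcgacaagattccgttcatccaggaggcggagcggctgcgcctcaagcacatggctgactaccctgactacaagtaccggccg
Sox11: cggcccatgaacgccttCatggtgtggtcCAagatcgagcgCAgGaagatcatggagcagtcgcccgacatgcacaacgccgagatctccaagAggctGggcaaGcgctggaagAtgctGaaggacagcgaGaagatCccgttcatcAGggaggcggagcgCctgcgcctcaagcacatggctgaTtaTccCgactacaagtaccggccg
Sox2: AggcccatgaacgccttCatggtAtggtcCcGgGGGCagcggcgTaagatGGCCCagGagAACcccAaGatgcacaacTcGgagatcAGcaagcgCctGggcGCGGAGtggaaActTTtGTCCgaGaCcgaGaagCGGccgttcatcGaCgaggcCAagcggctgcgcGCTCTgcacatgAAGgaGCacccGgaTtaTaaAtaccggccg
Sox9: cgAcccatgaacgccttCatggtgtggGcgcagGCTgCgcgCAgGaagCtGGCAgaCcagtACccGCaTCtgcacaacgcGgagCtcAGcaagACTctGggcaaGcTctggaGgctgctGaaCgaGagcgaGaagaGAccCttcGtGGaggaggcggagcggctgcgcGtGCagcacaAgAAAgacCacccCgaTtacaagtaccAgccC

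*Sox11* had the same base as *Sox4* at 191 of the 210 positions (91.0%). *Sox9* shared 155 (73.8%) and *Sox2* 146 (69.5%), so the 2 SoxC genes shown stood closest together. *Sox2* (ENSMUSG00000074637), *Sox4* (ENSMUSG00000076431) and *Sox11* (ENSMUSG00000063632) are annotated with a single exon that holds the whole box, at chr3:34650548-34650757 on the plus strand and at chr13:28952632-28952841 and chr12:27342049-27342258 on the minus strand. *Sox12* (ENSMUSG00000051817) is also annotated with a single exon. *Sox9* (ENSMUSG00000000567) has 3 exons, and its box is split between 113 bases of exon 1, at chr11:112782903-112783015, and 97 bases of exon 2, at chr11:112783809-112783905, on the plus strand. The counts come from transcript ends and not from the box. Of the 471 to 474 distinct stretches of 30 bases in the last 500 bases of each member, 0 occurred in transcripts of any other gene among 19 SOX genes. The annotated transcript *Sox2ot* spans *Sox2* on the same strand and is not a row of the count tables, and *Gm26735* overlaps *Sox4* on the opposite strand, so reads of either pair could be shared where they overlap.

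The retained cells held 4566658 UMIs in TKO1 (median 1223 per cell) and 8105281 in TKO2 (median 1960). Most were neuroendocrine-like, 2990 and 3385 cells, in 7 and 9 clusters built without any SOX gene. The rest were 95 and 121 macrophage-like cells, 108 club-like cells of TKO1, and 62 cells of TKO2 in a cluster that was left unnamed because club markers led it while its neuroendocrine markers summed to 443% of the neuroendocrine-like level. All 18 neuroendocrine markers had UMIs in the TKO1 neuroendocrine-like cells, with a summed level of 23600 CPM (UMIs of a gene per 1000000 UMIs of the cells). All 18 also had UMIs in those of TKO2, but their summed level was 2040 CPM, and *Calca* accounts for most of the difference, with 71662 UMIs in TKO1 and 145 in TKO2. Other markers also differed, and in both directions, as *Resp18* (7865 and 52 UMIs) and *Uchl1* (1162 and 3937) show. Among their 10 leading genes, clusters 1, 2 and 3 of TKO1 and cluster 7 of TKO2 held more markers of another cell type than of the neuroendocrine list, so values are given by cluster and, for the main comparisons, also without these. This rests on few genes, *Cfap126* in cluster 1, *Dcn* in cluster 2, *Cfap126* and *Dynlrb2* in cluster 3, and *Tppp3* in cluster 7 of TKO2. In the same clusters 15, 17, 16 and 8 of the 18 neuroendocrine markers were at least 2-fold over the macrophage-like cells. Below they are called clusters led by markers of other types. UMIs of the deleted genes *Rb1*, *Trp53* and *Rbl2* were found in both tumors (326, 206 and 40 in TKO1, 118, 492 and 14 in TKO2), which does not check the deletions, since transcript ends can lie outside a deleted part. The libraries had 22 barcodes in common, and ratios without them are given with the alternatives.

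*Sox2* was higher in the neuroendocrine-like cells of TKO1, while *Sox4*, *Sox9* and *Sox11* were higher in those of TKO2 and *Sox12* was nearly level in CPM. *Sox2* had 763 UMIs in TKO1, 181 CPM with an exact Poisson 95% interval of 168 to 194, and 495 UMIs in TKO2, 63.7 CPM (58.2 to 69.6). The log2 ratio of TKO1 to TKO2 was 1.50 (exact binomial 95% interval 1.34 to 1.67), or 2.83-fold. The ratio of all 12926 genes that reached 10 UMIs had its median at 0.37, and relative to that median *Sox2* was at 1.13. All these intervals cover counting error only, not the spread between animals.

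The SoxC genes *Sox4* and *Sox11* both leaned to TKO2. *Sox4* had 541 UMIs or 128 CPM (117 to 139) in TKO1 and 2097 UMIs or 270.0 CPM (259 to 282) in TKO2, a log2 ratio of -1.08 (-1.22 to -0.94). *Sox11* had 519 UMIs or 123 CPM (112 to 134) in TKO1 and 1895 UMIs or 244 CPM (233 to 255) in TKO2, a log2 ratio of -0.99 (-1.13 to -0.85). Relative to the median of all genes, *Sox4* was at -1.45 and *Sox11* at -1.36. Among cells with more than 1000 detected genes the ratios were smaller, -0.54 for *Sox4* and -0.64 for *Sox11*. Without the clusters led by markers of other types, *Sox2* stood at 1.48, *Sox4* at -1.12 and *Sox11* at -0.72.

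*Sox12*, the SoxC member with the fewest UMIs, had 85 UMIs (20.1 CPM, 16.1 to 24.9) in TKO1 and 153 (19.7 CPM, 16.7 to 23.1) in TKO2. Its log2 ratio of 0.03 had an interval of -0.37 to 0.42, which holds 0. Relative to the median of all genes, *Sox12* was at -0.34. *Sox9* had 0 UMIs in the 2990 TKO1 cells, where 3 UMIs would be 0.71 CPM, and 19 UMIs in TKO2, 2.45 CPM (1.47 to 3.82). Taking 3 UMIs over the TKO1 cells as the limit, *Sox9* was lower in TKO1 by a bound of 3.45-fold (log2 -1.78). Counting error in the TKO2 UMIs weakens that bound, and the interval reached to -1.34. That bound rests on few cells, and without the clusters led by markers of other types its log2 value was -0.71 in place of -1.78. With fewer TKO1 UMIs left, 3 UMIs are a higher level, and 4 of the 19 TKO2 UMIs lay in the cluster left out. The value is thus a weaker bound and not a measure of a smaller difference.

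At 2-fold or more, 1 member (*Sox2*) was higher in TKO1, where 31.0% of all genes tested passed the same line. 2 members (*Sox4* and *Sox9*) were higher in TKO2, where 12.3% of all genes did, and *Sox11* lay just under the line at 1.99-fold. The median log2 ratio of the 5 members was -0.99, against 0.37 over all genes.

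The rest of the SOX family had few UMIs. Of 14 other family members, 6 reached 10 UMIs over both tumors, with a median log2 ratio of -0.61, and *Sox3*, *Sox7*, *Sox10*, *Sox14*, *Sox15*, *Sox17*, *Sox18* and *Sox30* had at most 4 UMIs in either tumor. None of the 6 was at least 2-fold higher in TKO1, where 31.0% of all genes were, and 2 were in TKO2, where 12.3% were. *Sox1*, which is of the SoxB1 group like *Sox2*, went from 25.6 CPM in TKO1 to 83.3 CPM in TKO2, a log2 ratio of -1.70 (-2.01 to -1.41), opposite in direction to *Sox2*. *Sox5*, a SoxD factor of cartilage and glia, went from 6.15 to 19.1 CPM, at -1.63 (-2.29 to -1.02). *Sox13* was at 0.85 (0.21 to 1.48), an interval that held the median of all genes, 0.37. The intervals of *Sox6* and *Sox21* held 0, and that of *Sox21* (-1.03 to 0.27) lay below 0.37.

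Genes known as targets or partners of SOX factors were read from lists. The lists were chosen with earlier results of these data known, so the counts and medians below describe the lists and do not test them. Of 5 SoxC target genes, 4 were at least 2-fold higher in TKO2, where 12.3% of all genes were, and 0 in TKO1, where 31.0% were. Their median log2 ratio was -3.03, against 0.37 over all genes. *Tubb3*, a neuronal tubulin, had 136 UMIs (32.2 CPM) in TKO1 and 2046 (263 CPM) in TKO2, a log2 ratio of -3.03 (-3.29 to -2.78). *Dcx*, a microtubule protein of migrating neurons, had 0 UMIs in TKO1 and 58 in TKO2, and *Neurod1*, a neurogenic bHLH factor, had 0 and 95. With 3 UMIs as the limit, they were 10.5-fold and 17.2-fold lower in TKO1. Their counting intervals reached to log2 ratios of -3.05 and -3.78. *Tead2*, a Hippo pathway factor, was at -1.40 (-2.15 to -0.71), from the identifier, of its 2, that had UMIs. *Map2*, a dendrite microtubule protein, was at -0.21, with an interval of -0.48 to 0.05.

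Of 13 POU factors, 7 reached 10 UMIs, with a median of -0.35. At 2-fold or more, 2 were higher in TKO2, where 12.3% of all genes were, and 0 in TKO1, where 31.0% were. *Pou2f2*, the listed POU factor with the most UMIs, had 263 in TKO1 and 948 in TKO2. Its log2 ratio was -0.97 (-1.17 to -0.77), just under that line. *Pou3f4*, a neural POU factor, had 10 UMIs in TKO1 and 197 in TKO2, 10.7-fold apart. *Pou3f2*, another neural POU factor, had 0 and 33, 5.98-fold lower in TKO1 with 3 UMIs as the limit. Its counting interval reached to a log2 ratio of -2.2. *Pou5f1*, the partner of Sox2 in pluripotent cells, had 0 UMIs in both tumors. Of 9 genes that act with Sox2 in pluripotent cells, 3 reached 10 UMIs, and they did not move one way. *Klf4* was higher in TKO1 at 2.35 (1.97 to 2.73), *Lin28a* was lower at -1.31 (-2.07 to -0.62), and the interval of *Sall4* held 0. Of 9 cartilage genes controlled by Sox9, 4 reached 10 UMIs, 1 at least 2-fold higher in TKO1 (*Col9a2*, 1.40) and 2 in TKO2 (*Col9a3*, -4.85, and *Col11a1*, a bound of -1.71). The shares of all genes at these lines were again 31.0% and 12.3%. *Col2a1* and *Acan*, the main cartilage products, had 0 UMIs in both tumors.

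**Figure D1:**
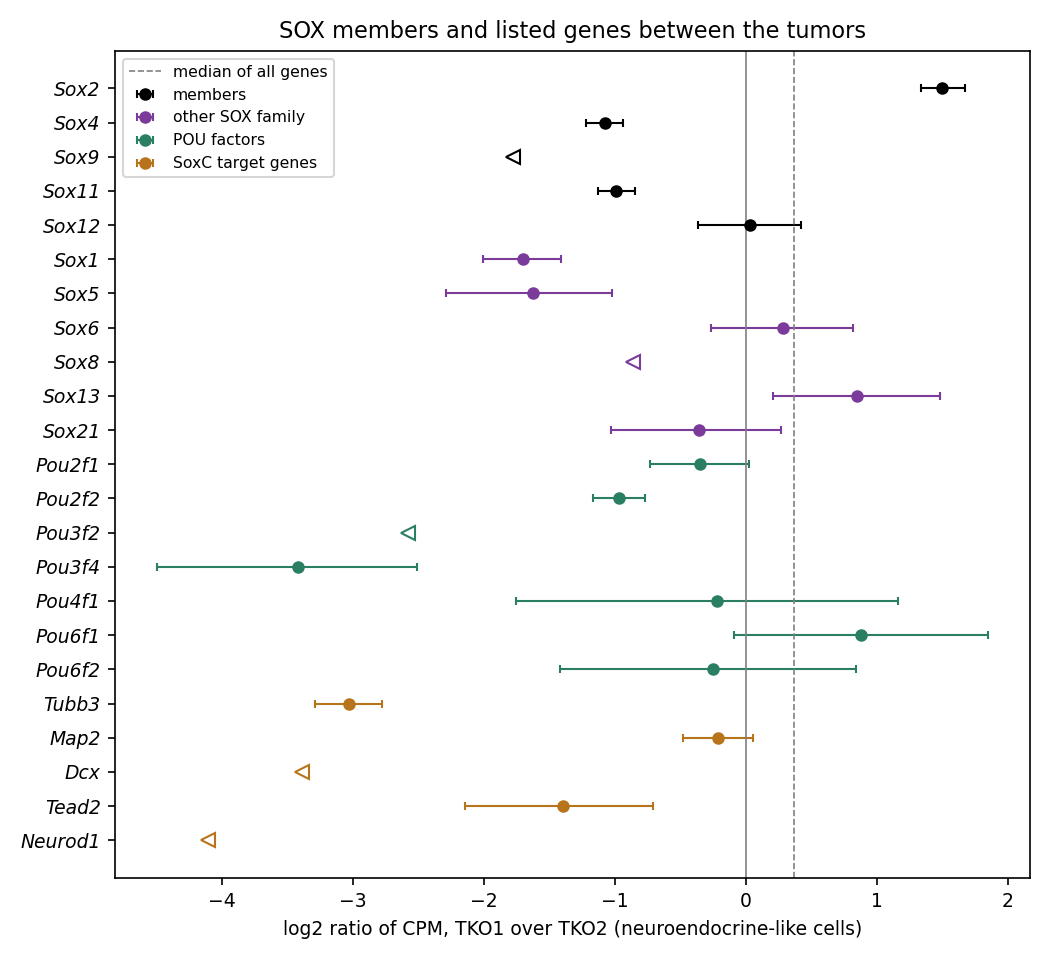
Log2 ratio of the summed level (CPM) in TKO1 over TKO2 in neuroendocrine-like cells, for the members, the other SOX genes, POU factors and SoxC target genes with at least 10 UMIs. Bars are exact 95% counting intervals, open triangles are limits set by 3 UMIs where TKO1 had 0, the solid line is 0 and the dashed line the median of all genes, 0.37. *Sox2* lies to the right of both lines at 1.50, and *Sox4*, *Sox9* and *Sox11* to the left.

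*Sox2* had a narrower range over the clusters of a tumor, in fold, than *Sox4*, *Sox11* and *Sox12*. Over the 7 neuroendocrine-like clusters of TKO1, *Sox2* ran from 157 to 195 CPM, 1.24-fold, and over the 9 of TKO2 from 50.6 to 90.6 CPM, 1.79-fold. In TKO2, cluster 3 (89.3 CPM, 70.6 to 111) had an interval clear of those of cluster 0 (40.8 to 69.2) and cluster 4 (41.3 to 67.0). The ranges of the tumors did not overlap, so every TKO1 cluster stood above every TKO2 cluster. *Sox4* ran from 81.4 to 162 CPM in TKO1 and from 152 to 473 CPM in TKO2, where the ranges met only at the lowest TKO2 cluster and the highest TKO1 clusters. *Sox11* ran from 38.5 to 179 CPM in TKO1 (4.65-fold) and from 73.3 to 437 CPM in TKO2 (5.96-fold), and the ranges overlapped. Without the clusters led by markers of other types, the *Sox11* range in TKO1 was 72.7 to 179 CPM, 2.46-fold, and the one in TKO2 stayed at 5.96-fold. *Sox12* ran from 10.4 to 39.7 and from 7.92 to 29.5 CPM, with wide intervals on 3 to 37 UMIs per cluster. Without those clusters it ran 3.01-fold in TKO1 and 2.34-fold in TKO2.

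**Figure D2:**
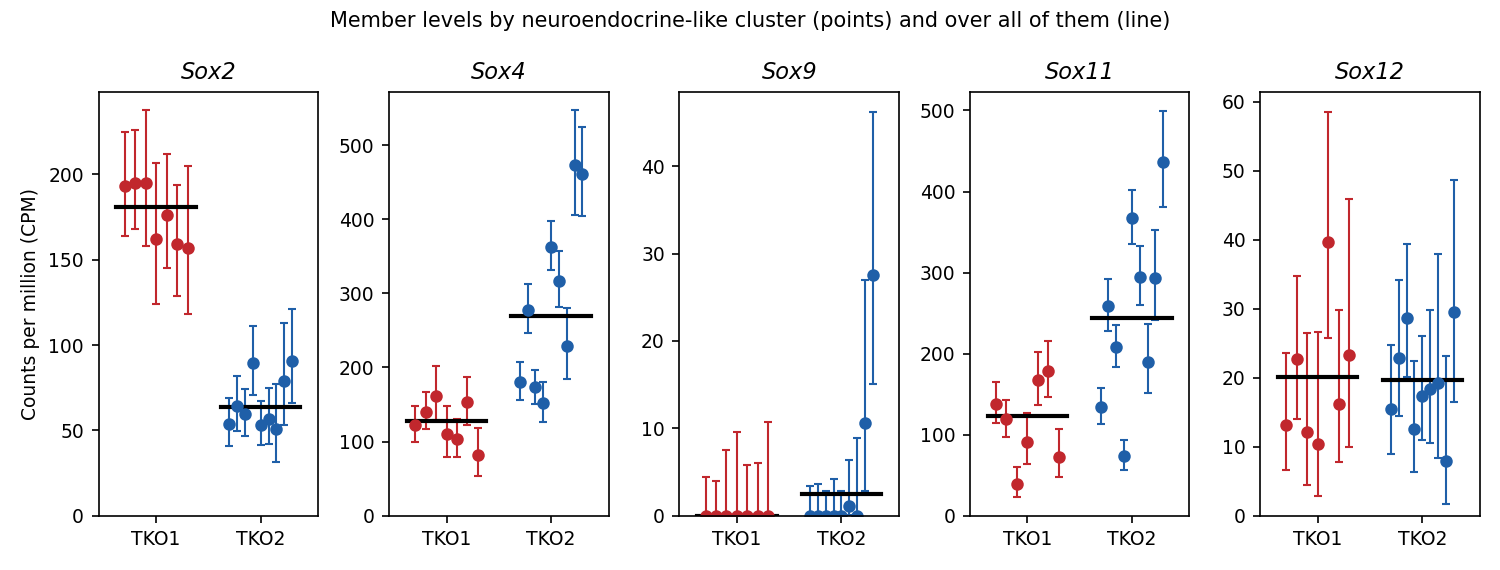
Level (CPM) of each member by neuroendocrine-like cluster, 7 of TKO1 and 9 of TKO2, with clusters in number order from left to right. Points are clusters with exact Poisson 95% intervals and black lines are the level over all of them. The *Sox2* clusters of TKO1, at 157 to 195 CPM, all lie above those of TKO2, at 50.6 to 90.6 CPM.

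In TKO2, clusters with much *Sox4* also had much *Sox11*. Cluster 8 held 461 CPM of *Sox4* and 437 of *Sox11*, cluster 4 held 363 and 367, and cluster 3, the lowest for both, held 152 and 73.3. Across the 9 clusters Pearson's r was 0.87 and Spearman's rho 0.85, and r was 0.94 over the 7 clusters left without clusters 7 and 8, the farthest from the median in *Sox4*. In TKO1, r was 0.00 over 7 clusters and 0.31 over the 5 left without clusters 2 and 6. There, cluster 2 had the highest *Sox4*, 162 CPM, and the lowest *Sox11*, 38.5 CPM. Clusters of a tumor share 1 library, and depth moved with these levels only in part. In TKO2 the median was 2785 UMIs per cell in cluster 8 and 2863 in cluster 4, against 1532 in cluster 3. Cluster 7, with 473 CPM of *Sox4*, had a median of 1892. Clusters 2 and 6, with 173 and 229 CPM of *Sox4*, had medians of 2288 and 2408. The part of depth in these values was not tested.

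**Figure D3:**
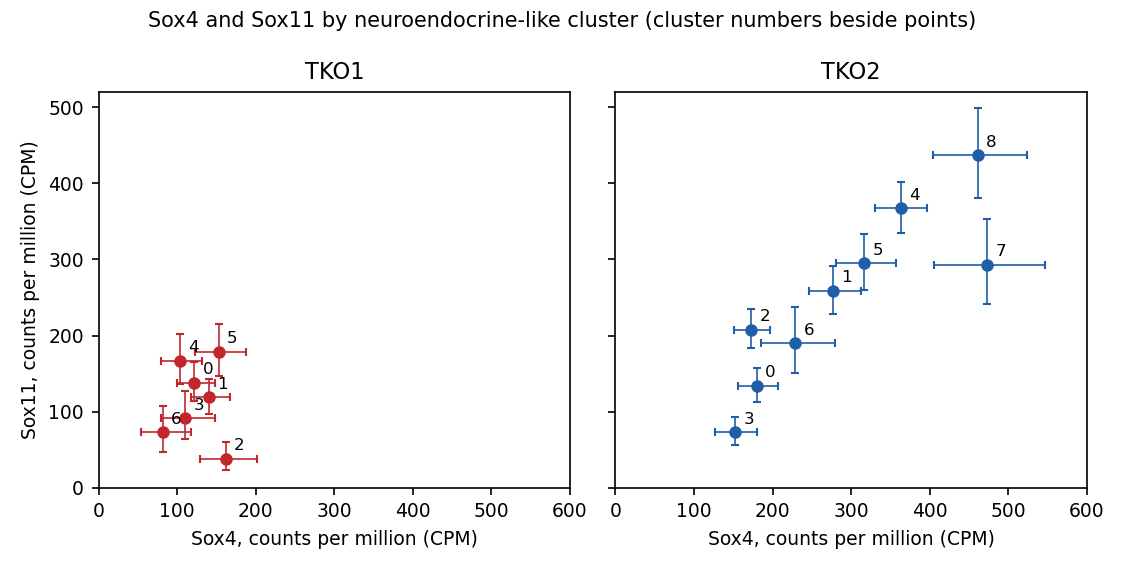
*Sox4* against *Sox11*, both in CPM, by neuroendocrine-like cluster of TKO1 (left) and TKO2 (right), with exact Poisson 95% intervals on both axes and cluster numbers beside the points. The TKO2 clusters run from cluster 3, at 152 and 73.3 CPM, up to cluster 8, at 461 and 437 CPM, while the TKO1 clusters show no such order.

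The *Sox9* UMIs of TKO2 were concentrated. Of the 19, cluster 8 held 14 (27.6 CPM, 15.1 to 46.2), cluster 7 held 4 and cluster 5 held 1, and the other clusters had none. The UMIs lay in 14 cells, with at most 3 in a cell. Cluster 8 was led by *Speer4* family and related predicted genes and cluster 7 by *Cartpt*, *Dlk1* and *Spp1* among others, and these 2 clusters also had the most *Sox4* of the 9, 473 CPM in cluster 7.

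Outside the neuroendocrine-like cells, the macrophage-like cells, which should lack *Sox2*, were read as a rough guide to RNA from other cells. Free RNA was not estimated and no doublets were removed, so the source of these UMIs was not tested. *Sox2* stood there at 21.5 CPM in TKO1 and 13.3 CPM in TKO2, 11.9% and 20.9% of the neuroendocrine-like level. The summed neuroendocrine markers, which macrophages should also lack, were at 16.2% and 38.5% of that level. In TKO1, *Calca* gave 380 of the 532 UMIs in that sum. Single markers with UMIs ran from 9.65% (*Resp18*) to 117% (*Syp*, on 4 UMIs) in TKO1. In TKO2 they ran from 12.5% (*Scg2*) to 404% for *Calca* and 464% for *Resp18*, so the sum is a rough measure. *Sox4* was at 57.5 and 62.1 CPM (44.9% and 23.0%) and *Sox11* at 57.5 and 115 CPM (46.8% and 47.3%). In TKO1, *Sox2*, *Sox4* and *Sox11* were at least 2-fold lower there than in neuroendocrine-like cells, where 31.1% of all genes were. *Sox12*, the other member with UMIs in these cells, rests on 1 UMI. Its log2 ratio of -1.49 (-6.81 to 1.03) leaves 2-fold undecided. The shares of all genes had 0.5 UMIs added to each sum, so a count of 1 passes there less readily. In TKO2, 3 of the 4 members with UMIs were at least 2-fold lower, where 25.0% of all genes were. The median log2 ratio of all genes was -0.37 in TKO1 and -0.27 in TKO2. *Sox9* had 0 UMIs in both, over 95 and 121 cells. The *Sox11* ratio in TKO1 rests on 8 UMIs and lay at 0.24 on the log2 scale with cells thinned to 500 UMIs, against -1.10.

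*Sox9* of TKO1 lay in the club-like cells, secretory cells of the airway. They held all 11 of its UMIs among the retained cells, 54.6 CPM (27.3 to 97.8), in 10 of 108 cells. Taking 3 UMIs in the neuroendocrine-like cells as the limit, the level was 77.0-fold above theirs. That is a log2 ratio of 6.27, with a counting interval that reached down to 5.72. *Sox9* was the 1 member of 5 at least 2-fold higher in the club-like cells, where 10.5% of all genes were. *Sox11* was the only member shown to be at least 2-fold lower, where 30.6% of all genes were. *Sox12*, with 0 UMIs there against 85, was 1.35-fold lower by the limit of 3 UMIs. Its counting interval reached to a log2 ratio of -0.1, which leaves 2-fold undecided. The shares of all genes were counted with a part of a UMI added to each sum, so a 0 passes there more readily. *Sox2* was at 114 CPM (72.4 to 171) in the club-like cells and *Sox4* at 99.3 CPM (60.7 to 153), 63.3% and 77.6% of the neuroendocrine-like level. As log2 ratios these are -0.66 (-1.33 to -0.06) and -0.37 (-1.09 to 0.28). The median of all genes was -0.51, which both intervals held. *Sox11* had 1 UMI (4.97 CPM, 0.126 to 27.7), 4.04% of that level, and *Sox12* had 0. The neuroendocrine markers of these cells summed to 29.5% of the neuroendocrine-like level, so the *Sox11* level was below that share and the *Sox2* and *Sox4* levels above it. *Calca* gave 1007 of the 1402 UMIs in that sum, and single markers with UMIs ran from 17.4% (*Snap25*) to 59.0% (*Pcsk1*). With all retained cells summed, the *Sox9* levels of the tumors were alike, with a log2 ratio of 0.04 (-1.18 to 1.18).

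The unnamed cluster of TKO2, 62 cells, had another profile from the neuroendocrine-like cells of its own tumor. *Sox2* was at 152 CPM on 17 UMIs, a log2 ratio of 1.25 (0.46 to 1.95) over the neuroendocrine-like cells, where 30.2% of all genes were at least 2-fold higher. *Sox11* was at 35.8 CPM on 4 UMIs, a log2 ratio of -2.77 (-4.65 to -1.41), where 11.9% of all genes were at least 2-fold lower. *Sox4* was at 259 CPM, at -0.06 (-0.64 to 0.47), and *Sox9* had 0 UMIs. The median log2 ratio of all genes between these cells and the neuroendocrine-like cells was 0.33. *Calca*, which encodes a neuroendocrine peptide, and *Resp18*, a granule protein, had 458 and 178 UMIs in these 62 cells, against 145 and 52 in the 3385 neuroendocrine-like cells. The part of RNA from other cells in these values was not tested.

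**Figure D4:**
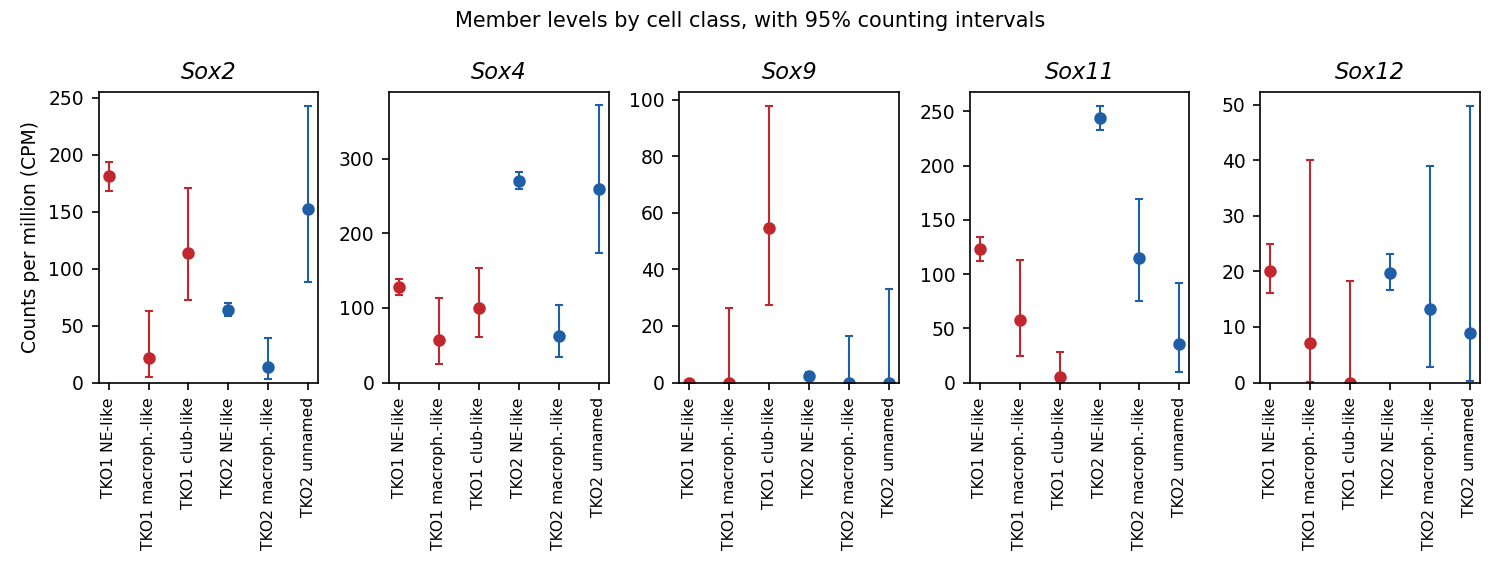
Level (CPM) of each member by cell class, for TKO1 (red) and TKO2 (blue), with exact Poisson 95% intervals. NE-like stands for neuroendocrine-like. *Sox9* is highest in the club-like cells of TKO1, at 54.6 CPM, and *Sox11* is at 4.97 CPM there, against 123 CPM in the neuroendocrine-like cells.

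To compare shares of cells, each cell was thinned to 1000 UMIs, which left out 840 neuroendocrine-like cells of TKO1 and 362 of TKO2. *Sox2* was detected in 14.3% of 2150 cells in TKO1 (exact Clopper-Pearson 95% interval 12.8 to 15.8) and 6.58% of 3023 cells in TKO2 (5.72 to 7.53). *Sox4* was detected in 11.5% (10.2 to 13.0) and 19.9% (18.5 to 21.4), and *Sox11* in 9.67% (8.46 to 11.0) and 17.0% (15.7 to 18.4). The shares of these genes had the same order as their levels. Unthinned shares were 19.2% and 12.2% for *Sox2*, 14.6% and 34.5% for *Sox4*, and 13.2% and 32.5% for *Sox11*. In the macrophage-like cells (80 and 112 cells) the thinned shares were 2.5% and 1.79% for *Sox2*, 5.0% and 5.36% for *Sox4*, and 3.75% and 7.14% for *Sox11*. All these shares were lower, and the intervals were apart from those of the neuroendocrine-like cells for *Sox2* in TKO1 (0.304 to 8.74) and for *Sox4* (1.99 to 11.3) and *Sox11* (3.13 to 13.6) in TKO2. They overlapped for *Sox4* (1.38 to 12.3) and *Sox11* (0.78 to 10.6) in TKO1 and for *Sox2* in TKO2 (0.217 to 6.3). Before thinning, their median depths were 1433 and 1718 UMIs, against 1393 and 2108 in the neuroendocrine-like cells. *Sox12*, detected in 1.81% and 2.22% of the neuroendocrine-like cells, stood against 1.25% (0.0316 to 6.77) and 0.893% (0.0226 to 4.87) in macrophage-like cells, with overlapping intervals. *Sox9* was detected in 0 of 2150 cells in TKO1, which allows a share of cells with a UMI of up to 0.14% by a count of 3 and 0.171% by the exact interval, and in 4 of 3023 cells in TKO2.

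Most cells showed none of the members at this depth. No member was detected in 66.7% of TKO1 cells and 61.6% of TKO2 cells, 1 member in 29.5% and 31.4%, 2 in 3.67% and 6.48%, and 3 or more in 0.14% and 0.496%. A cell without a UMI is not a cell without the transcript, since a cell at 1000 UMIs misses most transcripts of genes at these levels. The Fano factor is the variance of the UMIs per cell over their mean. In TKO1 it was 1.18 for *Sox2*, 1.12 for *Sox4* and 1.69 for *Sox11*, above 52.6%, 24.8% and 96.7% of genes. The value for *Sox11* leans on a single cell, which held 11 of its 260 UMIs while the next held 3. In TKO2 the factor was 1.23 for *Sox4* and 1.21 for *Sox11*, above 89.0% and 87.0% of genes, and 1.10 for *Sox2*, above 47.1%.

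*Sox11* was higher in mitotic than in low cells of both tumors, while the values of *Sox4* in TKO2 depended on the processing. Neuroendocrine-like cells at 1000 UMIs were called mitotic with at least 3 UMIs of 34 mitosis genes, S-phase with at least 3 UMIs of 24 replication genes and fewer than 3 of mitosis genes, and low with at most 1 UMI of each. There were 907 low, 560 S-phase and 340 mitotic cells in TKO1, and 433, 897 and 1308 in TKO2. The remaining 343 and 385 cells lay in between and were given none of these states. These are ranges of a score and not observed stages of division, so a mitotic call does not place a cell in mitosis itself. By this score, 156 cells of TKO1 and 415 of TKO2 lay next to the mitosis threshold.

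In TKO1, *Sox11* went from 100 CPM (80.8 to 123) in low cells to 139 (110.0 to 174) in S-phase and 203 (158 to 257) in mitotic cells. In TKO2, it was at 148 CPM (114 to 189) in low, 152 (127 to 179) in S-phase and 271 (243 to 300) in mitotic cells. The log2 ratio of mitotic to low cells was 1.02 (0.54 to 1.48) in TKO1 and 0.87 (0.49 to 1.28) in TKO2. *Sox11* was the only 1 of 4 measured members at least 2-fold higher in mitotic cells of TKO1, where 9.86% of all genes were, and 0 of 4 passed that line in TKO2, where 10.2% of all genes did. The share of cells with *Sox11* UMIs was also higher in mitotic cells. It went from 8.60% (6.86 to 10.6) of low to 15.9% (12.2 to 20.2) of mitotic cells in TKO1. In TKO2 it went from 13.9% (10.7 to 17.5) to 21.7% (19.5 to 24.0). In S-phase cells it was 10.4% (7.96 to 13.2) in TKO1 and 13.2% (11.0 to 15.5) in TKO2, with intervals overlapping those of low cells. The TKO1 cell with 11 *Sox11* UMIs was not among the mitotic cells. The mitotic cells had been deeper before thinning, with medians of 1874 and 2436 UMIs against 1301 and 1774 in low cells. Thinned to 2000 UMIs, only 84 low and 173 mitotic cells of TKO1 were left, and the ratio was 0.34 (-0.47 to 1.21). At that depth TKO2 kept 34 low and 1036 mitotic cells, with a ratio of 0.69 (-0.13 to 1.65), so both intervals held 0. In the other 6 alternatives the intervals excluded 0 in both tumors.

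By the number of mitosis UMIs per cell, *Sox11* in TKO2 stood at 134 CPM in cells with 0, 190 in cells with 1 to 2, 251 in cells with 3 to 9 and 310.0 in cells with 10 or more. In TKO1 the same bins held 115, 78.6, 185 and 219 CPM, so that the step lay at 3 UMIs and the order of the lower bins was turned. In S-phase cells the log2 ratio to low cells was 0.47 (0.02 to 0.93) in TKO1 and 0.04 (-0.40 to 0.49) in TKO2, and the TKO1 value turned to -0.17 with a state threshold of 2 UMIs and had an interval clear of 0 in 1 of 7 alternatives. As thinned here, the intervals of *Sox2*, *Sox4* and *Sox12* held 0 in mitotic and S-phase cells of both tumors, with *Sox2* in mitotic cells at -0.20 (-0.68 to 0.26) in TKO1 and -0.27 (-0.88 to 0.37) in TKO2. For *Sox4* the mitotic values were 0.32 (-0.16 to 0.78) and 0.21 (-0.12 to 0.55). In TKO2 the *Sox4* interval excluded 0 in 4 of 7 alternatives, at 0.52 (0.17 to 0.88) with another thinning draw alone, so whether *Sox4* is higher in mitotic cells of TKO2 is not settled by these counts. In mitotic cells of TKO2, *Sox2* was at -1.03 (-1.62 to -0.43) when cells were taken by marker UMIs in place of clusters.

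**Figure D5:**
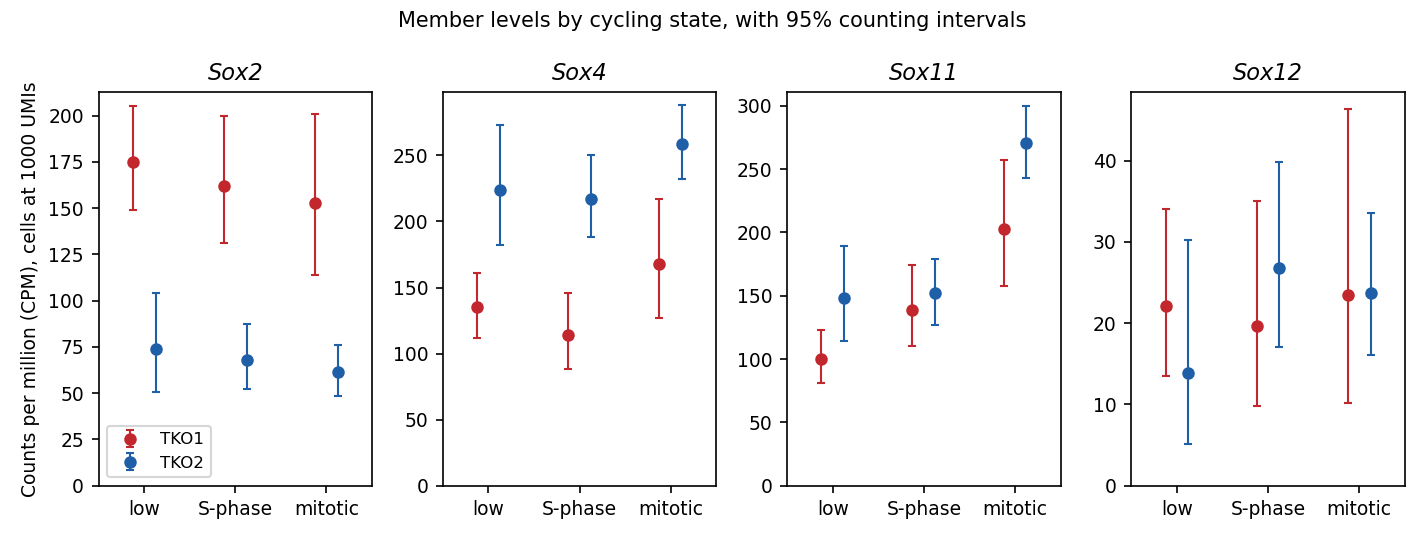
Level of *Sox2*, *Sox4*, *Sox11* and *Sox12* in CPM in neuroendocrine-like cells thinned to 1000 UMIs, by cycling state, for TKO1 (red) and TKO2 (blue), with exact Poisson 95% intervals. Cells in between these states are not drawn. Over the states drawn, *Sox11* is highest in mitotic cells of both tumors, at 203 and 271 CPM. *Sox2* is at 153 to 175 CPM in TKO1 and at 61.2 to 73.9 CPM in TKO2 over the same states.

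The tumors differ in their shares of cells by score, 15.8% called mitotic in TKO1 and 43.3% in TKO2, so the ratios were also read within a state. The *Sox2* ratio of TKO1 to TKO2 was 1.25 in low, 1.26 in S-phase and 1.32 in mitotic cells, and all the intervals excluded 0. For *Sox4* the ratios were -0.74, -0.93 and -0.63, again with intervals that excluded 0. For *Sox11* they were -0.56 (-1.04 to -0.07), -0.12 (-0.54 to 0.29) and -0.42 (-0.81 to -0.04). Each was smaller in size than the -0.76 over all cells at 1000 UMIs, and in S-phase cells the *Sox11* interval held 0. The median ratio of all genes was 0.36 in low, 0.29 in S-phase and 0.26 in mitotic cells. The S-phase *Sox11* ratio lay below that median, which its interval met only at the edge. Cells in between these states, 343 of TKO1 and 385 of TKO2, have no ratio here. *Sox11* was at 64.1 CPM (40.2 to 97.1) in those of TKO1 and 171 (133 to 218) in those of TKO2. These cells enter the -0.76 over all cells and none of the ratios within a state. The parts of these cells and of the differing shares of states in the smaller ratios were not tested.

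Across single cells at 1000 UMIs, r between members was near 0, and it was highest for *Sox4* and *Sox11* in TKO2. For that pair, Pearson's r of log-transformed UMIs was 0.080 (95% interval 0.044 to 0.116) over 3023 cells. It was 0.053 (0.017 to 0.089) after centring each cluster and 0.075 (-0.019 to 0.17) among 433 low cells. The middle 95% of 2959 genes had r from -0.04 to 0.05 with *Sox4* and from -0.05 to 0.05 with *Sox11*. The 0.080 of the pair lay above both ranges. Both genes were detected in 139 cells, 4.60% (3.88 to 5.41), and the product of their shares, 3.39%, lay below that interval. In TKO1 r was -0.029 over 2150 cells and 0.017 with another thinning draw, so its sign was not stable, and both were detected in 19 cells (0.884%, 0.533 to 1.38) where the product of shares was 1.12%. In TKO1 r ran from -0.040 to 0.007 over the other pairs that could be computed, and in TKO2 from -0.024 to 0.029. Cells of a tumor share a library, and counts this sparse hold any correlation near 0.

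The genes most like each member across cells were also weakly related. For *Sox11* they were *Nusap1* (r = 0.12), *Mki67* and *Kmt2c* (both 0.11), then *Tmem143* and *Cenpf* (both 0.09) in TKO1, and *Tmsb4x* (0.12), *Ube2c* (0.11), *Cks1b* (0.10), *Cdc20* and *Ndn* (both 0.09) in TKO2. Of these, *Nusap1*, *Mki67*, *Cenpf*, *Ube2c* and *Cdc20* are on the mitosis list. In the other tumor, r was 0.04 for *Nusap1* and 0.06 for *Cenpf*, and it was 0.08 for *Ube2c*, 0.04 for *Cdc20*, 0.03 for *Cks1b* and 0.00 for *Tmsb4x*. For *Sox4* the likest genes were *Hist1h2bc* (0.10) in TKO1 and *Cdkn1c* (0.11) in TKO2, and for *Sox2* they were *Macrod2* and *Akirin2* (both 0.08). The r of *Hist1h2bc*, *Cdkn1c*, *Macrod2* and *Akirin2* was at most 0.03 in the other tumor. Over 3530 genes in TKO1 and 2959 in TKO2, r with *Sox11* ran from -0.09 to 0.12 and from -0.16 to 0.12.

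*Sox4* and *Sox11* were also higher in the few TKO2 cells with *Neurod1* UMIs. These 62 cells (median 2809 UMIs) held 458 CPM of *Sox4* (371 to 560.0) and 357 CPM of *Sox11* (280.0 to 448), against 265 (253 to 277) and 241 (230.0 to 252) in the other 3323 cells (median 1971 UMIs). *Sox2* was at 38.6 CPM (16.7 to 76.1) against 64.4 (58.8 to 70.4) and *Sox12* at 24.1 CPM (7.83 to 56.3) on 5 UMIs against 19.6 (16.5 to 23.0), both with overlapping intervals. A *Neurod1* UMI is found more readily in a deep cell, and the part of depth in these values was not tested.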

How the data were processed

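The libraries hold RNA of sorted live cells, 1 tumor for each of the 2 mice. The authors deposited UMI counts per gene and barcode, not normalized, with gene and barcode lists. Cell Ranger, Seurat and mm10 are named in the submitters' processing notes; versions and the setting for strand are not given in the sources used here. The count totals of all barcodes were 5285038 in TKO1 and 8291430 in TKO2.

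Cells with more than 500 detected genes and under 10% mitochondrial UMIs were retained (the highest share was 3.88% and 7.6%). Each tumor was clustered with Seurat 5.3.0 in R 4.3.3 (scale 10000, 1000 variable genes without SOX genes, 10 components, resolution 0.8). Clusters were named for a non-neuroendocrine type with 3 or more markers 4-fold over the other cells, and as neuroendocrine with 3 markers 2-fold over the immune-like cells. A club-like name also needed summed neuroendocrine markers under 50% of the neuroendocrine-like level, a limit set after seeing the data. Scrublet (scanpy 1.11.5) called 0 doublets, which is not a working call, so no cell was removed as a doublet and removal of the highest scores was an alternative.

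UMIs were summed per class or cluster and given as CPM, with Python 3.11.15 (pandas 2.3.3, scipy 1.17.1, numpy 2.4.6). Figures were drawn with matplotlib 3.10.9. Intervals are at 95% and cover counting error only. Ratios were given for genes with at least 10 UMIs over the groups compared, against a limit of 3 UMIs where a group had 0; medians and counts over all genes had 0.5 UMIs added to each sum. Thinning used seed 1, and genes compared with the members by r or Fano factor had a mean of 0.05 UMIs or more. edgeR 4.0.16 gave TMM factors only. The intervals of the ratios were tried on simulated Poisson counts, the model that they assume. That cannot check them for counts that vary more than this between cells. The genes named are the 5 members, the genes of the lists, and the 5 genes with the highest r for each of *Sox2*, *Sox4* and *Sox11*; genes that lead a cluster, the deleted genes and *Gm26735* were named after their values were seen. The members, lists and states were chosen with earlier results of these data known. Values of some single genes and some sequences are not reported here. Alternatives covered scaling, filters, resolution, class naming, doublets, thinning depth and state threshold; leaving out clusters led by other markers, leaving out shared barcodes and a further thinning draw were chosen after seeing the data.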

Additional observations from a re-analysis of the deposited data

Results flagged for a closer look

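Barcodes with 500 or fewer detected genes, 1321 in TKO1 and 248 in TKO2, were left out of the values in the report, although those with more than 200 genes enter 1 of the alternatives, and they still held UMIs of the members above the limit that 3 UMIs allow. In TKO1 these barcodes held *Sox2* at 152 CPM, *Sox4* at 117, *Sox9* at 9.74, *Sox11* at 71.0 and *Sox12* at 15.3. In TKO2 they held *Sox2* at 48.3 CPM, *Sox4* at 236 and *Sox11* at 193. *Sox2* was higher in TKO1 and *Sox4* and *Sox11* in TKO2, the same directions as in the neuroendocrine-like cells. *Sox9*, with 0 UMIs in the neuroendocrine-like cells of TKO1, was present here, and the cell types of these barcodes were not assigned.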

How the results depend on the processing

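Of 295 values under alternatives for 35 results, 250 stayed close to the reported value (inside its interval or, for counts, within 1.5 times), 42 moved and 3 turned. The scaling moved the ratios of TKO1 to TKO2 together, with the median of all genes at 0.37 by total UMIs, 0.02 with TMM, -0.04 with median of ratios and 0.14 with mitochondrial and ribosomal protein genes left out of the total. *Sox2* stood at 1.15, 1.10 and 1.28 under these, *Sox4* at -1.43, -1.48 and -1.30, and *Sox11* at -1.34, -1.40 and -1.22, while *Sox12* was at -0.38 with median of ratios. With more than 1000 detected genes required, *Sox2* was at 1.78, *Sox4* at -0.54 and *Sox11* at -0.64. With cells thinned to 1000 UMIs, *Sox2* was at 1.25, *Sox9* at a bound of -0.25 and *Sox11* at -0.76. *Sox9* turned to 0.04 with all retained cells, which add the club-like cells of TKO1. Without clusters led by markers of other types, *Sox9* was at a bound of -0.71 and *Sox11* at -0.72. Genes at least 2-fold higher in TKO2 numbered 1596 by total UMIs, 2495 with median of ratios and 963 with more than 1000 detected genes. Without the shared barcodes, the members' ratios moved by at most 0.02.

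By cycling state, *Sox4* in mitotic cells of TKO2 had intervals clear of 0 in 4 of 7 alternatives, including 0.52 (0.17 to 0.88) with another thinning draw and 0.44 (0.10 to 0.78) with marker UMIs in place of clusters. Its mitotic and S-phase values in TKO1 did so at a threshold of 5 UMIs, at 0.55 (0.06 to 1.01) and -0.69 (-1.42 to -0.04), and *Sox2* in S-phase cells of TKO2 at -0.69 (-1.32 to -0.04) with the highest Scrublet scores removed. In TKO1, *Sox11* in mitotic cells was at 0.34 and *Sox4* in S-phase cells at 0.44 with thinning to 2000 UMIs, and *Sox11* in S-phase cells was at 1.02 with thinning to 500 UMIs and turned to -0.17 with a threshold of 2 UMIs. In TKO2, *Sox4* in mitotic cells was at 0.58 both with thinning to 500 UMIs and with the highest Scrublet scores removed, and at 0.44 in S-phase cells with a threshold of 2 UMIs. *Sox2* in mitotic cells was at -1.03 and *Sox12* in S-phase cells at -1.13 with marker UMIs in place of clusters, *Sox12* in mitotic cells was at -1.07 with thinning to 500 UMIs, and *Sox12* in S-phase cells at -0.49 with the highest Scrublet scores removed.

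For macrophage-like against neuroendocrine-like cells with thinning to 500 UMIs, *Sox4* was at -2.48 in TKO1 and -1.08 in TKO2, *Sox2* at -0.31 in TKO2, and *Sox11* turned to 0.24 in TKO1. With marker UMIs in place of clusters, *Sox4* was at -3.57 and *Sox11* at -1.70 in TKO2. The r of *Sox4* and *Sox11* in TKO1 was 0.026 with thinning to 500 UMIs, 0.019 in low cells, and 0.017 with all retained cells and with another thinning draw. The r of *Sox2* and *Sox4* was 0.081 with thinning to 2000 UMIs and 0.051 in low cells of TKO1, and -0.078 in low cells of TKO2. Where no construction of the alternative shows it, the cause was not tested. No paired analysis was possible because each tumor is 1 library with no replicate number. For the same reason no replicate could be left out.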
